A study of Mus musculus with 4 samples.

Results

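The miRNAs described here are those commonly used to trace blood and vessels in tissue RNA: miR-451a, miR-144 and miR-486 for red cells, and miR-126 for vessels. They were found by name among the 982 entries of the deposited read table, as every mature entry named after miR-451a, miR-144, miR-486 or miR-126a. This gave 7 entries, 5 in the blood group (miR-451a, miR-144-5p, miR-144-3p, miR-486-5p and miR-486-3p) and 2 in the vessel group (miR-126a-3p and miR-126a-5p). They were followed in cells carrying a green fluorescent reporter for Kit, the receptor that marks interstitial cells of Cajal (ICC), the pacemaker cells of the gut wall. The cells were sorted from whole jejunum or colon of C57BL/6 mice aged 11 to 20 weeks. There were 4 libraries, 1 each for jejunum and colon of Lep ob/+ mice (called healthy in the labels, and wild type in their genotype field) and of Lep ob/ob mice (called diabetic), which make no working leptin. All 4 groups carried the same KitcopGFP/+ reporter genotype, and each library was a pool (15 each, per the labels), so that no group had a replicate. Kit is an mRNA and was not measured in these small RNA libraries, so the labelled cell type was not checked against it.

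In mammals the gene pair of miR-144 and miR-451a is read as a single transcript under the erythroid factor GATA1, and miR-451a is among the most abundant miRNAs of mature red cells. Its short hairpin is not cut by Dicer but by the slicer Argonaute 2. miR-486-5p lies in an intron of the ankyrin gene Ank1 and is known from red cells, but also from skeletal and heart muscle, where it tunes the phosphoinositide 3-kinase pathway. miR-126 lies in an intron of Egfl7, a gene whose protein is secreted by endothelium. It is a defining miRNA of endothelial cells, in which it targets the growth factor signalling inhibitors Spred1 and Pik3r2, and is also found in platelets and blood progenitors.

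The RefSeq tables for assembly GRCm38.p6 held mature sequences for 4 of the 7 entries, shown because the miR-451a and miR-144 entries share a locus and the miR-126a-3p entry carries the vessel signal. They are written 5′ to 3′, with the seed (bases 2 to 8) in capitals, and the 4 seeds were all different.
miR-451a: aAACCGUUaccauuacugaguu
miR-144-5p: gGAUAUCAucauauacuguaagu
miR-144-3p: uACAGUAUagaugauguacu
miR-126a-3p: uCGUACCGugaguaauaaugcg

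The hairpins of the same 3 genes are given next with the mature arms listed above in capitals, because the arms sit differently in them. No mature sequence of miR-126a-5p was held, so its stretch of Mir126a is left in lower case.
Mir451a: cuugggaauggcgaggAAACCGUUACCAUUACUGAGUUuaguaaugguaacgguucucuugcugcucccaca
Mir144: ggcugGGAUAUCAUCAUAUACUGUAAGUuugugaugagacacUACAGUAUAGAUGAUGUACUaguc
Mir126a: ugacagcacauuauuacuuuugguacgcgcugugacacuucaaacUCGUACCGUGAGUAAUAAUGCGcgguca

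In the fold predicted by RNAfold, the last 4 bases of miR-451a (bases 17 to 38 of its 72-base hairpin) formed the terminal loop, whereas the shown arms of Mir144 and Mir126a had 0 bases in theirs. In the GRCm38.p6 annotation Mir144 and Mir451a were both on the plus strand of chromosome 11, between the coding genes Flot2 and Eral1, with Mir451b overlapping Mir451a. Mir126a was on the plus strand of chromosome 2 within Egfl7 and overlapped Mir126b. Mir486 was on chromosome 8 within Ank1 and overlapped Mir3107. No coordinates are given, since the deposited table was made on another build, mm9.

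Values are estimated read counts and CPM, meaning counts scaled to 1e6 per library with trimmed mean of M-values (TMM) factors. Where values are given as a pair within a tissue, ob/+ comes first and ob/ob second. The libraries held between 267076 and 716473 miRNA counts, and 1 count was worth between 1.52 and 3.15 CPM. A count of 0 is taken to allow up to 3 counts, or 6.84 and 7.12 CPM in jejunum and 4.55 and 9.45 CPM in colon. All intervals are 95% intervals and, like these limits, cover counting error of reads alone, because no group had a replicate. Since no molecular identifiers told copied reads from separate molecules, even the counting error may be wider than shown. In such bulk libraries fewer cells of a type and less RNA per cell cannot be told apart.

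**Figure D1:**
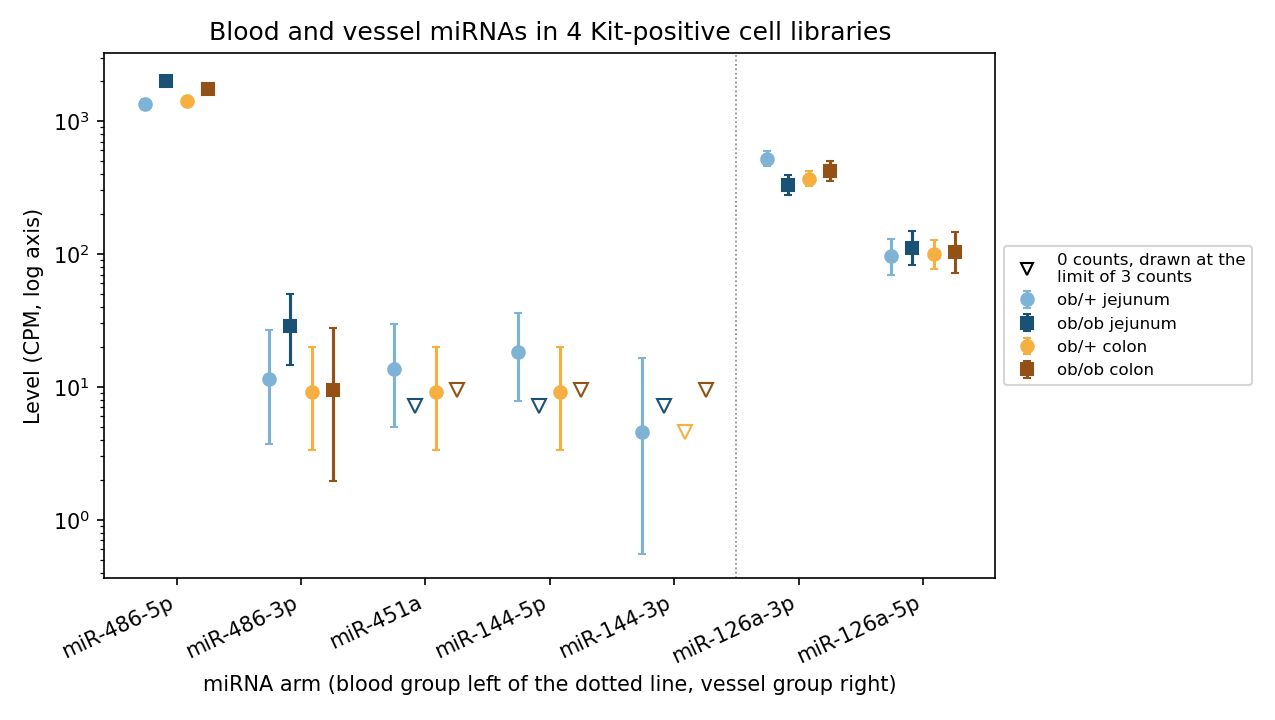
Level of each blood and vessel miRNA arm (x axis) in CPM on a log axis (y axis). Filled points are the 4 libraries with exact Poisson 95% intervals, and open triangles are libraries with 0 counts, drawn at the limit of 3 counts. miR-486-5p lies at 1353 CPM or above in every library, while the 3 arms of miR-451a and miR-144 lie at 18.3 CPM or below.

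The red cell pair miR-451a and miR-144 was at or close to 0 in all 4 libraries. miR-451a had 6 and 0 counts in jejunum and 6 and 0 in colon. miR-144-5p had 8 and 0 counts in jejunum and 6 and 0 in colon. miR-144-3p, the arm best studied as a regulator of red cell genes, had 2 and 0 in jejunum and 0 and 0 in colon. All counts of these 3 mature arms were therefore in the ob/+ libraries, 16 in jejunum and 12 in colon, against 0 in both ob/ob libraries. A separate hairpin-named entry, mir-451a, which the rule leaves out, had 1 count in ob/ob colon and 0 in the other 3 libraries.

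These counts bear on a genotype difference to a different degree in each tissue. In jejunum miR-451a stood at 13.7 CPM in ob/+ (5.02 to 29.8), a point value 1.92 times the limit of 7.12 CPM in ob/ob. The lower end of its interval lay below that limit. miR-144-5p stood at 18.3 CPM (7.88 to 36.0), a point value 2.56 times the same limit. Its interval lay above that limit but overlapped the exact Poisson interval of 0 counts in ob/ob jejunum, which reached 8.75 CPM. In colon each of miR-451a and miR-144-5p stood at 9.11 CPM in ob/+, below the limit of 9.45 CPM that 0 counts allowed in ob/ob colon, so no fold is given. At the ob/+ level the ob/ob colon library would have held 2.89 counts of each, and the ob/ob jejunum library 5.77 counts of miR-451a and 7.69 of miR-144-5p. A difference of either arm alone in colon was thus not detectable at this depth. Summed over the 3 mature arms, the ob/+ point value was 5.13 times the ob/ob limit of 3 counts in jejunum and 1.93 times it in colon. These multiples leave out the counting error in ob/+, so they are not lower bounds of a difference. None of these 3 arms reached the mean of 10 CPM required for the main test. With no abundance filter edgeR's quasi-likelihood test gave miR-451a an adjusted p of 0.333 (unadjusted 0.0441) and miR-144-5p an adjusted p of 0.283 (unadjusted 0.0305). Neither passed, but only 2 of 972 entries did in that fit, with 136 at an unadjusted p under 0.05. Not passing there therefore says little about these arms.

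miR-486-5p, by contrast, was well covered in every library. It had 593 and 846 counts in jejunum and 925 and 556 in colon, and ranked 45 and 39 among the entries of the jejunal libraries and 46 and 39 in colon. It made up between 96.6% and 99.5% of all blood group counts. For each count of miR-451a there were 98.8 counts of miR-486-5p in ob/+ jejunum and 154 in ob/+ colon. In the ob/ob libraries, taking 3 counts for miR-451a, there were at least 282 in jejunum and at least 185 in colon. Because the defining red cell miRNAs were at or near 0, the name erythroid is not used here for miR-486-5p, and the group is called blood only after the rule that formed it.

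The level of miR-486-5p was higher in both ob/ob libraries than in both ob/+ libraries, by a margin that did not pass the test. In ob/+ it was 1353 CPM for jejunum (1246 to 1466) and 1404 CPM for colon (1315 to 1497), and in ob/ob it was 1751 CPM for colon (1608 to 1903) and 2007 CPM for jejunum (1874 to 2147). Within each genotype the intervals of the tissues overlapped, and between the genotypes none did. Within a tissue, the log2 ratio between the genotypes was 0.57 for jejunum (0.42 to 0.72) and 0.32 for colon (0.16 to 0.47). These intervals leave out the variation between pools. Over both tissues, with tissue as a term, edgeR's quasi-likelihood test gave a log2 change of 0.44 ± 0.20 (SE back-calculated from the F statistic) and an adjusted p of 0.171. With library totals in place of TMM the change was 0.65 with an adjusted p of 0.0485, and scaled to mappable reads it turned to -0.43 (adjusted p = 0.168), where the median entry stood at -0.99.

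miR-486-3p, the minor arm of the same hairpin, was a small fraction of the locus. It had 5 and 11.5 estimated counts in jejunum and 6.5 and 3 in colon. The fractional values recur in miR-3107-3p, from the overlapping gene Mir3107, at 1.5 in ob/ob jejunum and 0.5 in ob/+ colon, and how reads were split between these entries is uncertain. miR-486-5p took between 98.6% and 99.5% of the counts of both arms in each library. For miR-486-3p the log2 change over both tissues was 0.81 ± 0.60 (edgeR's quasi-likelihood test, adjusted p = 0.361). Without the ob/ob jejunum library, which held more of its counts than any other, the change was -0.09.

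The vessel miRNA miR-126a-3p was present in all 4 libraries, at a lower level than miR-486-5p, and with TMM showed no common direction between the genotypes. It had 228 and 139 counts in jejunum and 243 in ob/+ colon, with slightly fewer than 139 in the shallower ob/ob colon library. With TMM its levels were 520 CPM (455 to 592) and 330 CPM (277 to 389) in jejunum and 369 CPM (324 to 418) and 419 CPM (351 to 496) in colon. The ob/+ jejunum library was the highest and the ob/ob jejunum library the lowest, with both colon libraries between them. Sorted by level, each library's interval overlapped that of its neighbour.

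In jejunum the log2 ratio of ob/ob over ob/+ for miR-126a-3p was -0.65 (-0.97 to -0.35), and in colon it was 0.18 (-0.13 to 0.49). The colon ratio exceeded the jejunum ratio by 0.84 on the log2 scale (0.39 to 1.29), a difference between single pools that has no test. Over both tissues the log2 change was -0.24 ± 0.30 (edgeR's quasi-likelihood test, adjusted p = 0.594). The ob/+ jejunum library set this sign, since without it and with no tissue term the change was 0.15. Scaled to mappable reads the change was -1.11 and passed (adjusted p = 0.00128, range over the alternatives 0.00128 to 0.962), again beside a median of -0.99 over all entries, and the tissue-wise values were -1.46 for jejunum and -0.74 for colon. In the authors' deposited table the ob/ob to ob/+ ratio of miR-126a-3p was 0.583 for jejunum and 1.20 for colon.

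The passenger arm miR-126a-5p, which is also functional in endothelium, was even across the libraries. It had 42 and 47 counts in jejunum and 66 and 33 in colon, or between 95.8 and 112 CPM, and all 4 intervals overlapped. Its log2 change by genotype was 0.14 ± 0.30 (edgeR's quasi-likelihood test, adjusted p = 0.749), and turned to -0.74 scaled to mappable reads (adjusted p = 0.112). Both arms come from the hairpin shown above, and their proportion does not depend on library scaling. miR-126a-3p took 84.4% (exact binomial 79.6 to 88.6) and 74.7% (67.9 to 80.8) of the counts of both arms in jejunum, and 78.6% (73.6 to 83.1) and 80.1% (73.2 to 85.9) in colon. All of these intervals overlapped, the jejunal pair only from 79.6% to 80.8%, and overlap alone does not show equal proportions. In jejunum the log2 ratio of ob/ob over ob/+ was -0.65 (-0.97 to -0.35) for miR-126a-3p and 0.21 (-0.41 to 0.85) for miR-126a-5p. The difference between the arms was not tested.

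**Figure D2:**
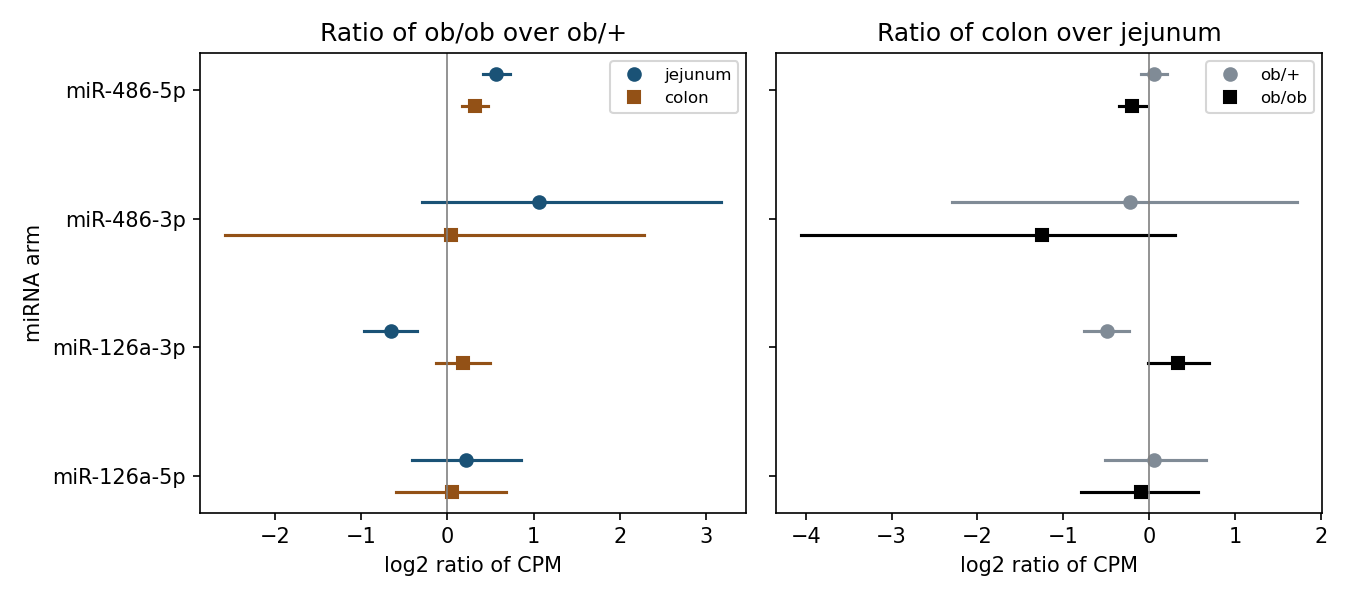
Log2 ratios of CPM (x axis) of the 4 tested arms (y axis), for ob/ob over ob/+ in each tissue on the left and colon over jejunum in each genotype on the right. Points are single-library ratios and lines are exact conditional binomial 95% intervals for counting error. miR-486-5p lies above 0 in both tissues on the left, and miR-126a-3p lies at -0.65 in jejunum and 0.18 in colon.

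Of the 7 entries 4 were abundant enough for the test, and 0 of these 4 passed for genotype, against 18.0% of all 322 entries tested (25 higher and 33 lower). The number that passed was 2 without either ob/ob library and 88 without the ob/+ jejunum library. The median log2 change of all entries tested was -0.12. With library totals 43 entries were higher and 28 lower, and scaled to mappable reads 18 were higher and 158 lower. Among the 4 tested arms, at least 2-fold ratios of ob/ob over ob/+ were seen for 1 in jejunum (miR-486-3p, 1.06, interval -0.29 to 3.18) and 0 in colon. The shares of all tested entries past 2-fold were 32.6% and 34.5%.

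**Figure D3:**
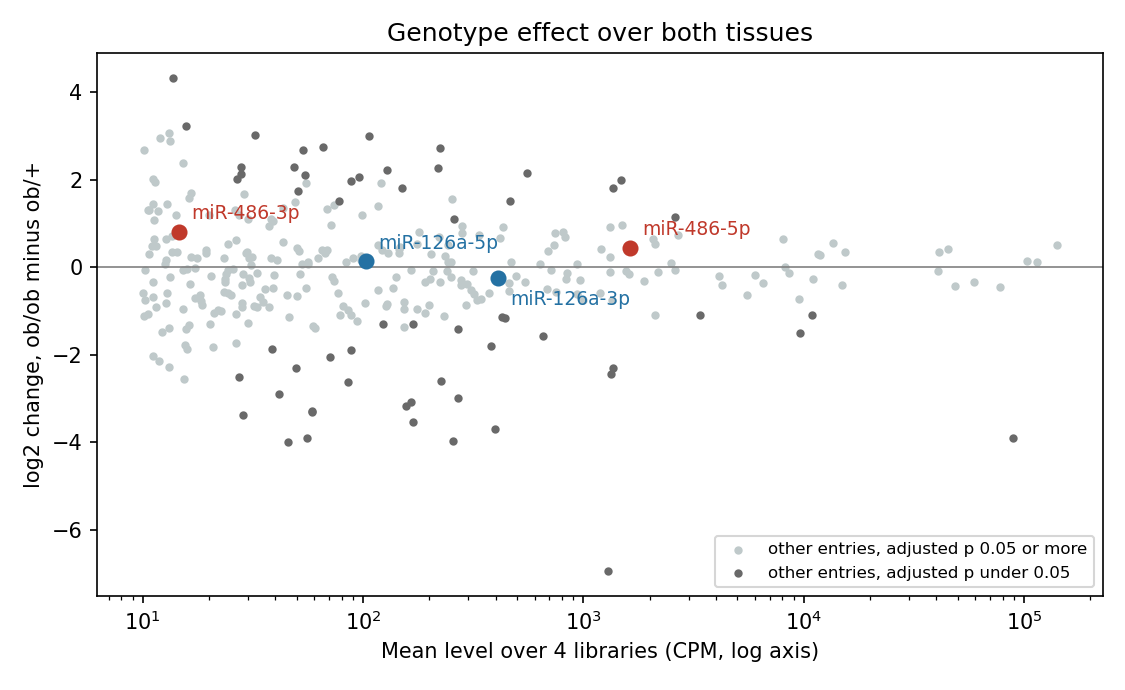
Log2 change between genotypes over both tissues (y axis, positive where ob/ob is higher) against mean CPM on a log axis (x axis) for the 322 entries tested, each a point. Dark grey entries passed the test, and the 4 coloured arms, between -0.24 and 0.81, did not.

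None of the 4 tested blood and vessel arms passed the test between jejunum and colon. miR-451a and the miR-144 arms were too low to be tested. The log2 change of colon over jejunum, with genotype as a term, was -0.07 ± 0.20 for miR-486-5p and -0.09 ± 0.30 for miR-126a-3p. It was -0.01 ± 0.30 for miR-126a-5p and -0.93 ± 0.61 for miR-486-3p (adjusted p from 0.951 to 0.996 in edgeR's quasi-likelihood test). The share of all tested entries that passed was 0%, with 14 at an unadjusted p under 0.05. DESeq2 and limma-voom also passed 0 entries, with 7 and 14 at that level. In ob/+ the colon over jejunum log2 ratio was -0.49 for miR-126a-3p (-0.76 to -0.23) and 0.05 for miR-486-5p (-0.10 to 0.20). In ob/ob it was 0.34 for miR-126a-3p (-0.01 to 0.70) and -0.20 for miR-486-5p (-0.35 to -0.04). The 1 ratio past 2-fold was that of miR-486-3p in ob/ob, at -1.25 (-4.06 to 0.30), and 0 of 4 were past it in ob/+. Of all tested entries 7.76% and 11.8% were past 2-fold in these comparisons.

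Set against each other within a library, the vessel and blood groups gave values free of library scaling. Vessel miRNAs made up 30.5% (27.5 to 33.7) and 17.8% (15.5 to 20.3) of the counts of all 7 entries in jejunum, and 24.7% (22.3 to 27.2) and 22.9% (19.9 to 26.1) in colon. The jejunal pair differed beyond counting error and the colonic pair did not. The blood side of this proportion was nearly all miR-486-5p, at 2.60 and 6.09 counts for each count of miR-126a-3p in jejunum and 3.81 and 4.18 in colon.

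Markers of other cell types are given beside these values. Among leukocyte miRNAs, markers of cells that reach tissue with the blood, miR-142-3p had 4 and 1 counts in jejunum and 2 and 0 in colon. The myeloid miRNA miR-223-3p had 8 and 3 counts in jejunum and 2 and 4 in colon. The other arm of the miR-142 hairpin, miR-142-5p, was higher in ob/ob, at 25.1 and 52.2 CPM in jejunum and 25.8 and 53.5 CPM in colon, and did not pass (log2 change 1.05 ± 0.37, edgeR's quasi-likelihood test, adjusted p = 0.104). The lymphocyte miRNA miR-150-5p had 25 and 8 counts in jejunum and 22 and 15 in colon (-0.47 ± 0.59, adjusted p = 0.594). The sum of the 7 leukocyte arms (5 tested, 1 higher in ob/ob, 0 lower) was 744 and 678 CPM in ob/+ jejunum and colon and 1426 and 1067 CPM in ob/ob. Most of that was miR-342-3p, at 591 and 1203 CPM in jejunum and 571 and 853 CPM in colon, which did not pass (log2 change 0.80 ± 0.24, edgeR's quasi-likelihood test, adjusted p = 0.0772). The 1 arm that passed was miR-342-5p (1.53 ± 0.34, adjusted p = 0.0403), and it did not pass without either ob/ob library (0.174 and 0.0887).

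Striated muscle miRNAs, the other tissue in which miR-486 is known, summed to 386 and 301 CPM in ob/+ jejunum and colon and to 690 and 435 CPM in ob/ob. Of these 5 arms 2 were tested and 0 passed: the log2 change was 0.67 ± 0.25 for miR-133a-3p (edgeR's quasi-likelihood test, adjusted p = 0.114) and 1.31 ± 0.44 for miR-1a-3p (adjusted p = 0.0984). miR-206-3p, which is specific to skeletal muscle, had 1 and 0 counts in each tissue. Smooth muscle miRNAs (miR-143 and miR-145a), the muscle of the gut wall itself, summed to 252184 and 213597 CPM in ob/+ jejunum and colon and to 348771 and 246396 CPM in ob/ob, a log2 ratio of 0.47 in jejunum and 0.21 in colon. Of these 4 arms 4 were tested and 0 passed, with a median log2 change of 0.57. With TMM all 3 sums were thus higher in ob/ob within each tissue, as miR-486-5p was, although for smooth muscle ob/ob colon lay below ob/+ jejunum. Scaled to mappable reads the log2 ratio of the leukocyte sum was 0.12 in jejunum and -0.28 in colon, that of the striated muscle sum 0.02 and -0.40, and that of the smooth muscle sum -0.35 and -0.73. Epithelial miRNAs (2120 and 917 CPM in ob/+ jejunum and colon, 370.1 and 289.7 CPM in ob/ob) and fibroblast miRNAs (4812 and 5001 CPM, against 963 and 888 CPM) had lower sums in both ob/ob libraries under each scaling. Of the 6 epithelial arms tested 4 were called lower and 0 higher, and of the 4 fibroblast arms 4 and 0, and 0 of these 8 passed without either ob/ob library. The part of these cell types in the values of miR-486-5p and miR-126a was not tested.

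**Figure D4:**
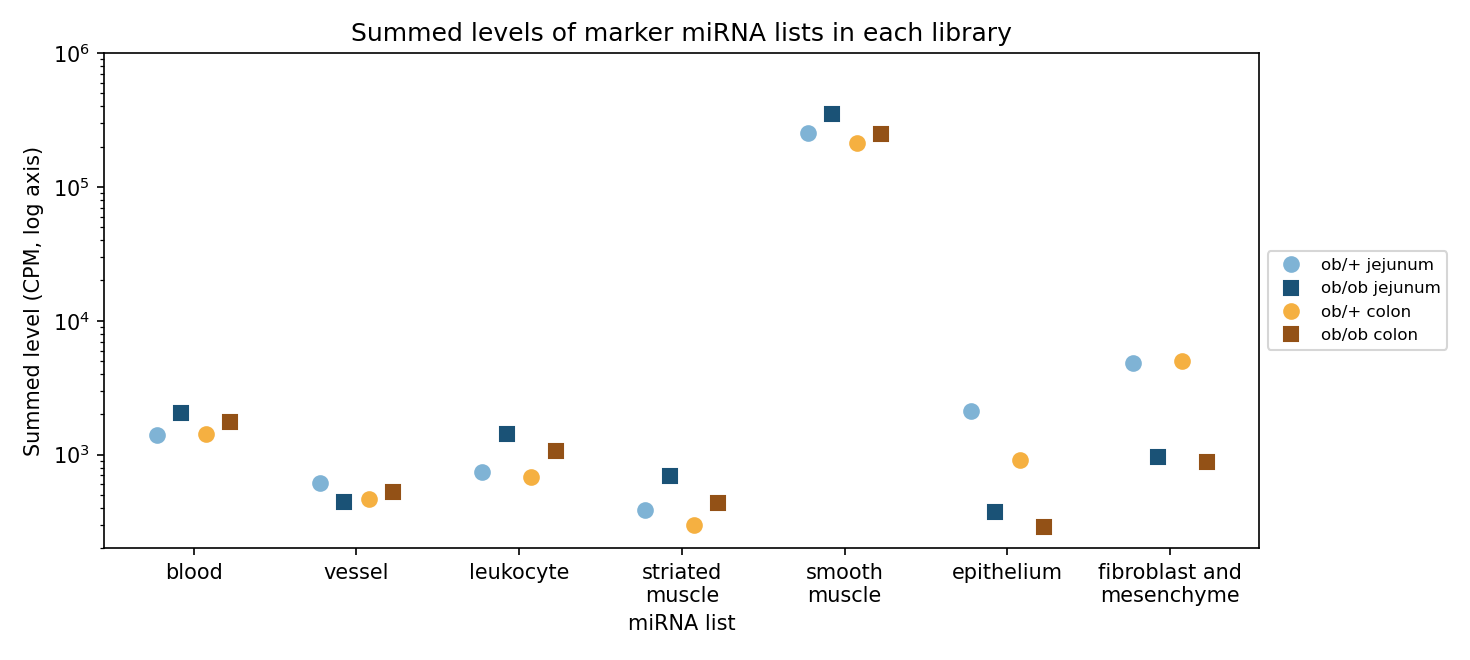
Summed CPM on a log axis (y axis) of 7 miRNA lists (x axis), 1 point for each library. With TMM the blood, leukocyte, striated muscle and smooth muscle sums are higher in ob/ob in each tissue (scaled to mappable reads blood and smooth muscle are lower in both tissues, and the others in colon), epithelial and fibroblast sums are lower in each, and the vessel sum lies between 441 and 616 CPM with the genotypes interleaved.

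Other miRNAs described in the same cell types were taken from 2 further lists. Of 15 arms described in endothelium or angiogenesis 9 were tested, of which 0 were higher and 3 lower in ob/ob, with a median log2 change of -0.80. Over all 322 entries tested 18.0% passed, 33 of them lower, and the median was -0.12. The 3 that fell in edgeR's quasi-likelihood test were miR-221-3p (log2 change -1.57 ± 0.23, adjusted p = 0.0173), miR-222-3p (-1.80 ± 0.28, adjusted p = 0.0189) and miR-23a-3p (-1.09 ± 0.17, adjusted p = 0.0189). None of these 3 passed without either ob/ob library (adjusted p from 0.0805 to 0.141). In human endothelial cells the first pair represses Kit and restrains the angiogenic response. miR-130a-3p, which in human endothelial cells represses antiangiogenic homeobox genes, did not pass (-0.80 ± 0.28, adjusted p = 0.106). miR-218-5p, also on the list, was higher in ob/ob and did not pass in the same test (1.48 ± 0.35, adjusted p = 0.0502). None of these miRNAs is specific to endothelium.

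Of 15 arms described in red cells or their maturation 9 were tested, of which 0 were higher and 2 lower, again miR-221-3p and miR-222-3p. The list's median log2 change was -0.30, again beside 18.0% passing and a median of -0.12 over all entries tested. miR-16-5p, which is abundant in red cells and in most other cells, did not pass (-0.12 ± 0.22, edgeR's quasi-likelihood test, adjusted p = 0.723), and neither did miR-22-3p (-0.12 ± 0.23, adjusted p = 0.731). In the same test miR-25-5p, at a mean of 11.2 CPM, was higher in ob/ob (2.03 ± 0.67, adjusted p = 0.0969). The other arm, miR-25-3p, was lower (-0.72 ± 0.24, adjusted p = 0.0984), and neither passed. miR-16-5p stood between 1221 and 1527 CPM in the 4 libraries, at least 89.2 times the highest level of miR-451a.

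The entries whose levels over the 4 libraries ran most like miR-486-5p were miR-30a-5p, miR-30c-5p and miR-181c-5p. Their root mean square difference from it, in log2 CPM centred over the 4 libraries, was 0.056, 0.059 and 0.067, against a median of 0.50 over the entries tested. Those most like miR-126a-3p were miR-1981-5p, miR-3473b and the hairpin-named mir-6236, at 0.11, 0.13 and 0.14, against a median of 0.50. The entries were picked for the smallest differences, so values far below the median follow from that choice. All are descriptions over 4 libraries and were not tested.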

How the data were processed

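Small RNA reads of 4 libraries were counted by the authors. Per the file headers, 3′ adapters were cut, reads under 15 nt set aside, and mappable reads assigned to miRBase 20 on mm9. No source used here names the aligner or counter. Raw values, as deposited, are estimated counts (between 87.7% and 89.8% of values above 0 are whole within 1e-06), and were rounded to whole numbers. The authors' normalized values are a signal, the raw value times 1 factor per library. Columns named for the small intestine were taken as the jejunal libraries. The authors' deposited ratio of ob/ob over ob/+ is quoted once.

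Mean abundance had to reach 10 CPM, which left 322 entries, tested with edgeR 4.0.16 (R 4.3.3), TMM scaling, genotype and tissue terms, 1 residual degree of freedom, Benjamini-Hochberg adjustment over all 322 and a threshold of 0.05. Ratios used a prior count of 2, with no test. P-values rest on how far the 4 pools depart from the sum of the genotype and tissue terms. The variance also drew on the other entries (3.85 prior degrees of freedom). Spread between replicate pools was not measured. Alternatives were other scalings, filters, prior counts (0.5 and 5), DESeq2 1.42.0, limma 3.58.1, no second factor and each library left out. Hairpins were folded with ViennaRNA 2.7.2. Named were all members, and for the most abundant member of each group the 3 entries most like it. The members and lists were chosen with earlier results of these data known.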

Additional observations from a re-analysis of the deposited data

Results flagged for a closer look

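miR-126a-3p stands out because with TMM its genotype ratio has opposite signs in the tissues, -0.65 in jejunum and 0.18 in colon (log2). The colon interval includes 0 (-0.13 to 0.49), and scaled to mappable reads the ratios share a sign, -1.46 and -0.74. With TMM the colon over jejunum ratio of miR-126a-3p has opposite signs in the genotypes, -0.49 in ob/+ and 0.34 in ob/ob (-0.01 to 0.70). The colon over jejunum ratio also changes sign between ob/+ and ob/ob for miR-126a-5p (0.061 and -0.10) and for miR-486-5p (0.053 and -0.20). Of these last ratios, only that of miR-486-5p in ob/ob has a counting interval that excludes 0. None of these differences was tested, since each rests on 1 library per group.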

How the results depend on the processing

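Of 58 entries called for genotype, the number was 115 with median-of-ratios factors, 123 with the authors' factors, 176 scaled to mappable reads, 34 in limma-voom and 2 with no abundance filter. With 1 library left out it ranged from 2 (without either ob/ob library) to 88. For tissue, 0 became 2 with the authors' factors and 2 with median-of-ratios. Scaling to mappable reads shifted the median log2 genotype ratio by -0.78 in jejunum and -0.86 in colon, and library totals shifted the colon median by 0.35. The miRNA counts were 22.5% of mappable reads in ob/+ jejunum and 12.3% in ob/ob jejunum. In colon they were 26.3% in ob/+ and 10.6% in ob/ob. The cause of this difference was not tested.

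Genotype changes scaled to mappable reads were -1.11 for miR-126a-3p, which then passed, -0.74 for miR-126a-5p, -0.43 for miR-486-5p and -0.034 for miR-486-3p. The ratios of miR-486-5p turned to -0.25 in jejunum and -0.61 in colon, and those of miR-126a-5p moved to -0.58 and -0.85. Under that scaling the colon over jejunum ratio of miR-486-5p in ob/+ moved to 0.24. With library totals miR-486-5p passed at 0.65, and its colon over jejunum ratio in ob/ob turned to 0.092. The genotype ratio in colon then moved to 0.69 for miR-486-5p and to 0.55 for miR-126a-3p. With 1 library left out, the genotype change ranged from -0.48 to 0.15 for miR-126a-3p and from -0.093 to 1.60 for miR-486-3p.

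Tissue changes that turned sign were those of miR-126a-3p (0.033 with library totals, 0.044 with mappable reads), miR-126a-5p (0.11, 0.12, and 0.0053 with the authors' factors) and miR-486-5p (0.057 and 0.061). With 1 library left out they ranged from -0.40 to 0.21, from -0.18 to 0.090 and from -0.39 to 0.22, and that of miR-486-3p, which kept its sign, from -1.66 (without ob/+ jejunum) to -0.29 (without ob/ob jejunum). The cause of these changes was not tested. A fit with 1 library left out had no term for the other factor, and the lone library was assumed to vary like the others. miR-486-3p gave no value at a minimum of 100 CPM. Of the other alternatives for single arms, 83 effects kept their sign and side of the threshold and 86 ratios stayed within their counting interval. Depth limits miR-451a and miR-144, at 8 counts or fewer.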
